A study of Mus musculus with 8 samples.

Results

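The comparison described here set mouse embryonic stem (ES) cells with a human Alu pair inserted into both copies of the Tbxt gene against unedited wild-type cells, at day 1 of in vitro differentiation. It used 4 of the 8 RNA-seq libraries of the series, 2 of Tbxt insASAY/insASAY cells and 2 of wild-type cells, and all genes of the deposited count files: of 48440 identifiers, 17049 carried enough reads to be tested. Both groups share the MK6 ES cell line, made from C57BL/6J mice, and the same culture: growth in medium with LIF and the 2 inhibitors known as 2i, a period without either, and then the GSK3 inhibitor CHIR99021, a small molecule that activates Wnt signalling. By the study's methods the differentiation was run without feeder cells, on gelatin. The insASAY cells carry the human AluSx1 element in intron 5 and the AluY element in intron 6 of Tbxt, in opposite orientation and on both alleles, so that the pair flanks exon 6. The other 4 libraries, 2 of delE6/delE6 cells that lack exon 6 on both alleles and 2 of delE6/+ cells that lack it on 1 allele, come from the same parental line, with the 2 delE6/delE6 libraries from different clones, and entered the fit as a shared estimate of the spread.

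Some features of the lines limit the comparison. The insASAY line was made by editing on embryonic fibroblast feeder cells with puromycin selection, followed by Cre recombination, ganciclovir counter-selection and isolation of single clones, and the sources used here do not say whether the wild-type cells went through the same steps or whether both insASAY libraries come from 1 clone. The inserted elements, the history of the clone and the time since the lines were separated cannot be told apart in this design. The study's methods name the 2 libraries of a genotype as biological replicates. Each p-value below measures the difference against a spread between replicates that was estimated over all 8 libraries of the 4 genotypes. For each gene this spread was also drawn towards that of other genes.

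Tbxt (brachyury) is the founding member of the T-box family of transcription factors. It is switched on by Wnt signalling in the primitive streak, where it drives the formation of mesoderm, and in the tail bud, where it keeps the progenitors of the trunk and tail axis in supply. Alu elements are primate-specific repeats, and 2 of them in opposite orientation can pair within a transcript, which places the exon between them in a loop that splicing may leave out. Transcripts without exon 6 encode a shorter Tbxt protein. In the GENCODE M21 annotation of GRCm38, exon 6 of mouse Tbxt lies on the plus strand of chromosome 17 at chr17:8438616-8438789. It holds 174 bases, or 58 whole codons with 0 bases over, so that its loss keeps the reading frame. The bases around it are shown because they are the part of the message that the inserted pair flanks. The first line gives the end of exon 5, exon 6 in capitals and the start of exon 7, and the second gives the joined message without exon 6, with the 9 bases on each side of the new junction in capitals.
Tbxt with exon 6: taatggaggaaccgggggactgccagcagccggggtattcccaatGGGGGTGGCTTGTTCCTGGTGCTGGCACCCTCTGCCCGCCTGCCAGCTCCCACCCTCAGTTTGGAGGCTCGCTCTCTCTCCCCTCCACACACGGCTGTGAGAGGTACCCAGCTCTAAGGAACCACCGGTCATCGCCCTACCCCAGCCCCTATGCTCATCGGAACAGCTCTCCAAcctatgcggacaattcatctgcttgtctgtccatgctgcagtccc
Tbxt without exon 6: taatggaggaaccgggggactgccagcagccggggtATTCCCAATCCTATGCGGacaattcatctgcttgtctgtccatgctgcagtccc

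Tbxt itself was weakly expressed at this stage. The wild-type libraries held 47 and 42 reads on Tbxt, or 1.70 and 1.56 CPM (counts per 1000000 reads, scaled with edgeR's TMM factors), and the insASAY libraries held 30 and 29 reads, or 1.09 and 1.06 CPM. Here and below, where a pair of values is set against another, the first pair is from the wild-type libraries. Both insASAY libraries lay below both wild-type libraries in Tbxt, but the difference did not pass the edgeR quasi-likelihood test (log2 fold change -0.60, standard error 0.266, adjusted p = 0.0826). In a fit of only these 4 libraries it passed, with an adjusted p of 0.0459. A read count per gene includes transcripts with and without exon 6 alike, so the form of the message was not measured. Of the genes that Tbxt is known for in the mesoderm, Msgn1, a transcription factor of the presomitic mesoderm, had 1 and 2 against 0 and 0 reads, and Wnt3a, the ligand that maintains the tail bud, 8 and 4 against 9 and 3 reads. Both fell under the filter on low counts and were not tested. Mixl1, a homeobox gene of the early streak, was measured at 0.253 and 0.186 CPM in the wild-type libraries and at 0.583 and 1.06 CPM in the insASAY libraries, and rose from this low level (log2 fold change 1.88, standard error 0.546, adjusted p = 0.0126). Mixl1 was not called without wild-type replicate 1, wild-type replicate 2 or insASAY replicate 2, adjusted p 0.0533 to 0.132. Of 25 annotated genes that start within 1 Mb of the start of Tbxt, Tbxt included, 13 were tested and 4 were called, all of them higher in insASAY cells, beside 11.5% of all tested genes called higher. The nearest called gene was Prr18, which starts 97.0 kb upstream (log2 fold change 0.86, standard error 0.311, adjusted p = 0.0362), followed by Sft2d1 at 123.3 kb, which had 13.7 and 11.4 CPM in the wild-type libraries and 18.9 and 18.8 CPM in the insASAY libraries (log2 fold change 0.58, standard error 0.107, adjusted p = 6.82e-04). Prr18 was not called by DESeq2 or without wild-type replicate 2, insASAY replicate 1 or insASAY replicate 2, adjusted p 0.0794 to 0.282, and Sft2d1 was not called without wild-type replicate 2, log2 fold change 0.46. Pde10a, which starts 90.9 kb downstream, was not called (log2 fold change -0.33).

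A gene was called when its adjusted p was under 0.05 and its log2 fold change past 0.5 in size. By this rule 1960 of the 17049 tested genes were higher in insASAY cells (11.5%) and 1679 were lower (9.85%), 21.3% in all. Every count of a list or family below is to be read beside these shares, and several lie near them. At a fold change over 2, 738 were higher and 449 lower, and at a fold change over 4, 95 were higher and 35 lower. Most changes were moderate, with a median log2 fold change of 0.85 among the genes called higher and -0.75 among those called lower. The genes called higher started from a lower level, a median of 3.89 CPM in wild-type cells, than those called lower, at 13.7 CPM. The median of all tested genes was -0.01 on the log2 scale, and the scaling factors of the 4 libraries ran from 0.975 to 1.03. In 77.0% of all tested genes the 2 insASAY libraries lay on one side of the 2 wild-type libraries, so that groups that do not overlap were the rule in this comparison and are not by themselves a sign of a large change. The groups were apart in all 1960 genes called higher and in 1678 of the 1679 called lower. Where such a gap is described below for called genes, it adds nothing to the call.

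Depth was similar in the 4 libraries, with 26527713 to 28445952 reads on genes. All 4 expressed the genes that define ES cells: Pou5f1 (Oct4), the master regulator of pluripotency, was measured at 295 and 282 CPM in the wild-type libraries and 233 and 228 CPM in the insASAY libraries, and Sox2 at 71.2 and 66.2 against 66.0 and 66.2 CPM. The summed level of 6 ES cell markers was 607.2 and 598.0 CPM in wild-type and 501.4 and 496.5 CPM in insASAY libraries. Markers of other cells were also measured, among them those of fibroblast feeders, which the editing steps used and the differentiation did not. The 30 genes listed for embryonic fibroblast feeders summed to 2347 and 2389 CPM in wild-type and 1109 and 1178 CPM in insASAY libraries, and the 23 genes listed for extraembryonic endoderm to 3688 and 3827 CPM against 2419 and 2477 CPM. Matrix genes that ES cells express as well, such as Fn1 and Lamc1, are among the largest terms of these sums. Of the genes that define fibroblasts, Col3a1 had 17 and 18 reads in the wild-type and 8 and 2 reads in the insASAY libraries, a fall that was not called by DESeq2 or without wild-type replicate 1, wild-type replicate 2 or insASAY replicate 2, adjusted p 0.0611 to 0.159, and Thy1 had 2.53 and 3.13 against 2.77 and 3.44 CPM and was not called. Postn and S100a4 had at most 2 reads in each of the 4 libraries. Col1a2 fell from 4.98 and 5.25 to 2.7 and 3.55 CPM but was not called without wild-type replicate 1, wild-type replicate 2 or insASAY replicate 1, adjusted p 0.0651 to 0.167. Sox7 and Gata6, which define extraembryonic endoderm, were at or under 1.44 CPM in each of the 4 libraries, and Pdgfra and Dab2, defining as well, were not called (0.29 and -0.02). Of 15 tested trophoblast markers 5 were lower and 2 higher, with a median of -0.36. The count lower was 3 without wild-type replicate 2 or insASAY replicate 1, and the count higher 1 without wild-type replicate 1 or insASAY replicate 1 or with at least 10 reads in each compared library. The sum over all 18 listed markers was 171.3 and 178.9 CPM against 199.3 and 196.5 CPM, of which Sfmbt2 held 78.2 and 79.3 against 125 and 118 CPM, while Gata3 fell from 6.75 and 7.82 to 2.73 and 3.07 CPM. Of the genes that define that lineage, Elf5 had 2 and 1 against 0 and 0 reads, and Tfap2c, which germ cells use too, fell by 0.53. Cdx2, defining as well, rose from 0.108 and 0.335 to 0.911 and 0.622 CPM. Eomes, also defining, was not called, at 13.2 and 14.8 against 14.4 and 17.3 CPM. In bulk libraries fewer cells of a type and less RNA per cell cannot be told apart.

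**Figure D1:**
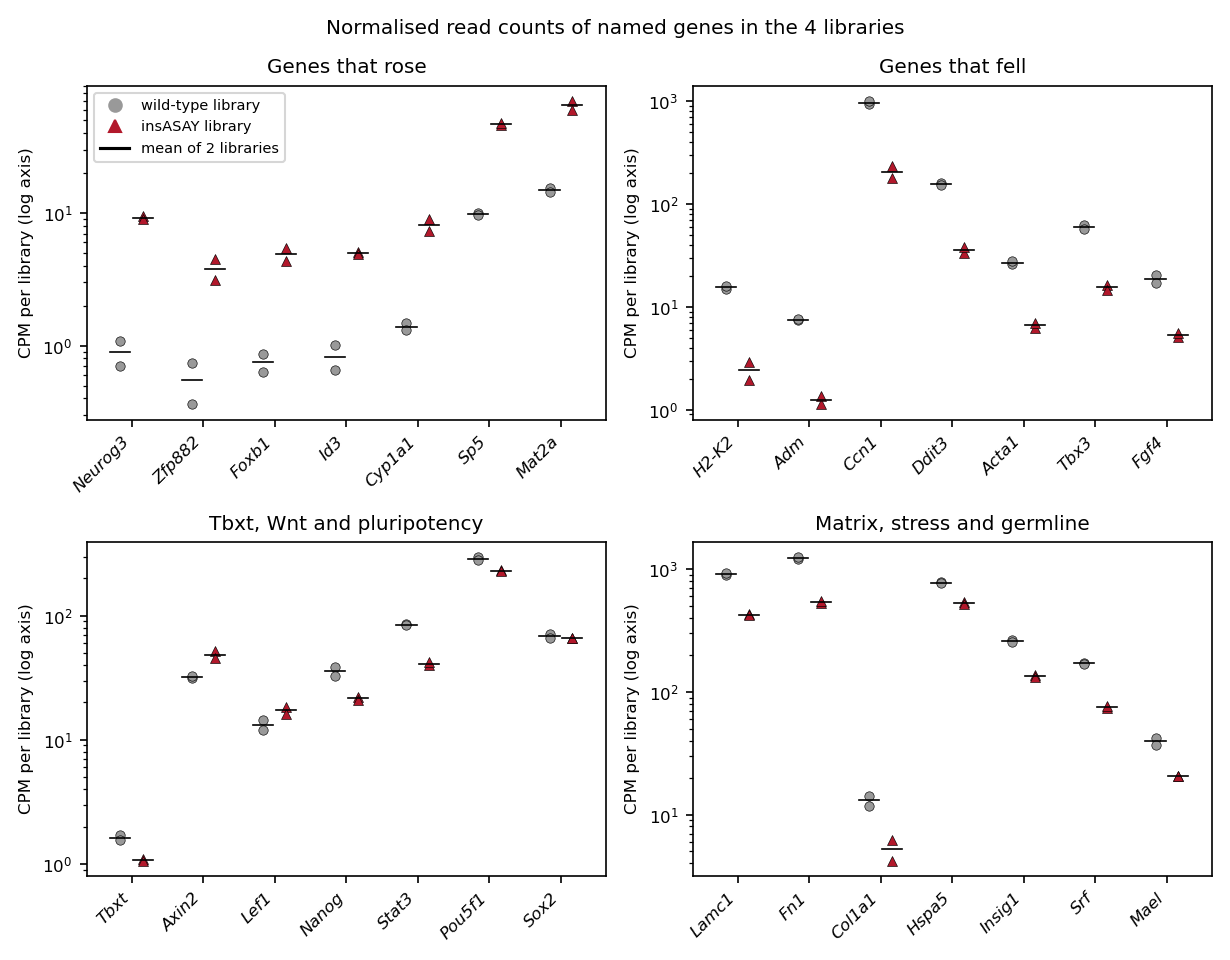
Normalised read counts of named genes, in CPM on a log axis, for each of the 2 wild-type libraries (grey circles) and the 2 insASAY libraries (red triangles); black lines are means of 2 libraries. The replicates of a group sit close together, and for Neurog3 the insASAY libraries, at 9.44 and 8.97 CPM, lie well above the wild-type libraries, at 1.08 and 0.707 CPM, while for Sox2 the groups nearly coincide.

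Where the 4 libraries averaged 2 CPM or more, the largest rises were in transcription factors, enzymes and zinc finger genes. Neurog3, which specifies endocrine cells of the pancreas and gut, was measured at 1.08 and 0.707 CPM in the wild-type libraries and at 9.44 and 8.97 CPM in the insASAY libraries (log2 fold change 3.35, standard error 0.339, adjusted p = 1.04e-05). Foxb1, a forkhead factor of the early neural tube, was measured at 0.866 and 0.633 against 5.47 and 4.35 CPM (log2 fold change 2.7, standard error 0.305, adjusted p = 2.11e-05), and Id3, an inhibitor of basic helix-loop-helix factors that responds to BMP signalling, at 0.650 and 1.0 against 5.10 and 4.94 CPM (log2 fold change 2.60, standard error 0.267, adjusted p = 1.14e-05). In each of these 3 genes both insASAY libraries were several times above both wild-type libraries. Cyp1a1, the classic target of the aryl hydrocarbon receptor, went from 1.48 and 1.30 CPM to 8.96 and 7.28 CPM (log2 fold change 2.54, standard error 0.298, adjusted p = 2.80e-05). Mat2a, which makes the methyl donor S-adenosylmethionine, was the most abundant of the 15 genes with the largest rises, at 15.3 and 14.5 CPM in wild-type and 69.7 and 59.6 CPM in insASAY libraries (log2 fold change 2.12, standard error 0.268, adjusted p = 4.79e-05). Fold changes over 4 were also seen for Glrx, a glutaredoxin that reduces protein disulfides (log2 fold change 2.19), Irgm1, an interferon-inducible GTPase (2.24), Eme2, a subunit of a DNA repair nuclease (2.38), and Jrk (2.14). The zinc finger genes Zfp882, Zfp758, Zfp125 and Zfp933 rose by log2 fold changes of 2.78, 2.41, 2.19 and 2.09.

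The largest falls included the actin gene Acta1 and the stress response genes Ddit3 and Gadd45b. Ccn1 (Cyr61), a secreted matrix protein and a target of the Hippo effector YAP, was measured at 942 and 1002 CPM in the wild-type libraries and at 179 and 235 CPM in the insASAY libraries (log2 fold change -2.23, standard error 0.178, adjusted p = 2.69e-06). Ddit3 (CHOP), the transcription factor of the integrated stress response, was measured at 159.8 and 154 against 33.7 and 37.9 CPM (log2 fold change -2.13, standard error 0.190, adjusted p = 4.72e-06), and Gadd45b, a stress-induced adaptor protein, at 167 and 167 against 33.9 and 46.3 CPM (log2 fold change -2.06, standard error 0.147, adjusted p = 1.69e-06). All 3 are abundant genes whose 2 groups of libraries were far apart. Adm, which encodes the vasodilator peptide adrenomedullin, went from 7.43 and 7.55 to 1.13 and 1.35 CPM (log2 fold change -2.59, standard error 0.287, adjusted p = 1.87e-05), and Acta1, skeletal muscle actin, from 25.9 and 28.1 to 6.27 and 6.95 CPM (log2 fold change -2.03, standard error 0.159, adjusted p = 2.32e-06). The tissue factor gene F3, which starts blood coagulation, and Thbs1, which encodes the matrix protein thrombospondin, fell by 1.83 and 1.79 on the log2 scale. Jph2, a junctophilin of muscle, Ebf1, an early B-cell factor, and Crispld2 fell by 1.83, 1.86 and 1.87. H2-K2 had the largest fall of these 15 genes (-2.68), but reads of this gene of the major histocompatibility complex may be split with its near-identical relatives, so its count is uncertain; the related H2-K1 had a log2 fold change of -0.22 and was not called.

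Wnt signalling acts upstream of Tbxt and was switched on in both groups by CHIR99021, so its genes were described first. Sp5, a zinc finger factor that is a direct target of the Wnt effector beta-catenin, was measured at 10.0 and 9.71 CPM in the wild-type libraries and 46.2 and 47.6 CPM in the insASAY libraries (log2 fold change 2.25, standard error 0.249, adjusted p = 1.87e-05). The insASAY libraries differed from each other by far less than they did from the wild-type libraries. Its promoter is shown because this is the largest change among the Wnt response genes. These are the 250 bases before its start in RefSeq on GRCm38.p6, chr2:70474673-70474922, with the binding motif of the TCF-LEF factors (CTTTGAT or CTTTGAA on either strand) in capitals.
Sp5 promoter: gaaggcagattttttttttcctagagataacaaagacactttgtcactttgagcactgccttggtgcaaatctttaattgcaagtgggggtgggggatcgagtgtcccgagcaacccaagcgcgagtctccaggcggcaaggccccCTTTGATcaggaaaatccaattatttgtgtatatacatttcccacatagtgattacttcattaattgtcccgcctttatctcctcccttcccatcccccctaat
Of 22 tested Wnt response genes, 5 were called higher and 2 lower, with a median of 0.10, beside 11.5% and 9.85% of all tested genes. Axin2, the feedback inhibitor that reads out the pathway most directly, was measured at 31.3 and 32.6 CPM against 51.5 and 45.7 CPM (log2 fold change 0.61, standard error 0.115, adjusted p = 8.87e-04). Cdx1, a caudal homeobox gene of the posterior axis, and Ccnd1, cyclin D1, rose by 0.71 and 0.78. The other defining targets did not pass: Lef1 had a log2 fold change of 0.38 and Nkd1 of 0.17. Lef1 was called without wild-type replicate 1, adjusted p 0.00930, and the median of the list ran from -0.007 to 0.156 as each library was left out in turn. Rnf43, a ubiquitin ligase that removes Wnt receptors, fell by 0.99, from 8.55 and 7.82 CPM to 3.79 and 4.46 CPM.

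Ligands and receptors of the Wnt pathway changed in both directions, with 10 of 33 tested members called higher and 8 lower. Among the ligands, Wnt8a rose by 1.26, from 10.8 and 9.45 to 25.9 and 22.7 CPM, and Wnt5b and Wnt6 by 1.06 and 0.96. Wnt3, which induces the primitive streak, fell by 0.69 from 3.46 and 3.54 CPM. Wnt3 was not called by DESeq2 or without insASAY replicate 2, adjusted p 0.0598 to 0.0727. The proteins that let Wnt ligands leave the cell were both lower: Porcn, which attaches their lipid, by 1.07, and Wls, which carries them to the surface, by 0.66. Of the receptors, Fzd6, Fzd1 and Fzd10 rose by 1.06, 0.73 and 0.73, whereas Fzd5 fell by 0.83. Fzd7 and the co-receptors Lrp5 and Lrp6 were not called, at log2 fold changes of -0.27, -0.28 and -0.37. The count called lower was 4 without insASAY replicate 1, beside 8 with all libraries.

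Genes of the primitive streak and mesoderm did not move together. Of 22 tested genes 6 were called higher and 5 lower, with a median of 0.21 that ran from 0.032 to 0.255 as each library was left out. The rises were in Sp5, Mixl1, Cdx2, Cdx1, the Notch ligand Dll3 and Fst, which encodes follistatin, a secreted antagonist of activin. Fst was measured at 4.73 and 5.06 CPM against 17.8 and 15.7 CPM, without overlap (log2 fold change 1.77, standard error 0.136, adjusted p = 2.10e-06). The falls were in Hand1, Foxf1, Cyp26a1, Mesp2 and Wnt3. Hand1, a factor of lateral and extraembryonic mesoderm, went from 3.54 and 3.80 to 1.49 and 1.10 CPM (log2 fold change -1.5, standard error 0.206, adjusted p = 8.78e-05). Eomes, the T-box factor that precedes Tbxt in the streak, was at 13.2 and 14.8 CPM in wild-type and 14.4 and 17.3 CPM in insASAY libraries and was not called (log2 fold change 0.18, adjusted p = 0.244). The count called lower rested on single libraries, at 3 without insASAY replicate 1 or insASAY replicate 2 or by DESeq2. The largest fall in the T-box family was in Tbx3, a factor of both pluripotent cells and mesoderm, which had 63.2 and 57.4 CPM in the wild-type libraries and 16.3 and 14.7 CPM in the insASAY libraries (log2 fold change -1.96, standard error 0.255, adjusted p = 5.80e-05). Tbx4 and Tbx18 fell as well, by 1.56 and 0.96, of which Tbx18 was not called by DESeq2 or without wild-type replicate 1, wild-type replicate 2 or insASAY replicate 2, adjusted p 0.0942 to 0.264, or with counts without regard to strand, adjusted p 0.0805, and none of the 13 tested T-box genes was called higher. Of 24 tested Hox genes, which set position along the body axis, 7 were called lower and 0 higher, with a median of -0.23. Hoxb9 had 15.4 and 13.7 CPM in wild-type and 6.05 and 6.44 CPM in insASAY libraries (log2 fold change -1.22, standard error 0.131, adjusted p = 1.55e-05), and Hoxb4 and Hoxa4 fell by 1.04 and 1.12.

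Pathways that pattern the early embryo showed single strong changes. In the BMP response, 4 of 20 tested genes were called higher and 4 lower, 20% each, beside 11.5% and 9.85% of all tested genes. Of the Id genes, the immediate targets of BMP signalling, Id1 rose by 0.87 beside Id3, while Id2 lay just under the fold threshold (0.50, adjusted p = 0.0458). Id1 was not called by DESeq2 or without any 1 of the 4 libraries, adjusted p 0.0714 to 0.237, Id2 was called without insASAY replicate 1, adjusted p 0.0447, or with at least 10 reads in each compared library, adjusted p 0.0442, or in the fit of only the 4 compared libraries, adjusted p 0.0331, and the count called higher was 2 without wild-type replicate 1 or insASAY replicate 2 or by DESeq2. Smad6, another feedback target, was not called (-0.28). The same list holds Tbx3, Gata3 and Smad7, which fell by 1.96, 1.32 and 0.84. Among BMP ligands, Bmp2 fell by 1.02, a weakly expressed gene at 2.78 and 2.27 against 1.13 and 1.35 CPM, while the ligand Bmp4, the receptors Bmpr1a and Bmpr2 and the transducer Smad1 were not called (-0.62, -0.04, -0.33 and 0.22). Of 22 tested genes of Nodal and activin signalling, 1 was called in each direction: Lefty1, a feedback inhibitor of Nodal, rose from 20.8 and 18.6 to 54.8 and 45.3 CPM (log2 fold change 1.34, standard error 0.158, adjusted p = 2.82e-05), while Nodal, Lefty2 and the co-receptor Tdgf1 were not called, at 0.35, -0.14 and -0.35. The count lower was 2 without wild-type replicate 2 or insASAY replicate 2. In the Notch pathway 5 of 23 genes were called higher and 3 lower, 21.7% and 13.0%, beside 11.5% and 9.85% of all tested genes. Its nuclear effector Rbpj fell from 291 and 271 to 126 and 134 CPM (log2 fold change -1.11, standard error 0.109, adjusted p = 8.21e-06), whereas the target genes Hes1 and Hey1 rose by 1.05 and 1.89. Hey1 was not called without wild-type replicate 1 or insASAY replicate 2, adjusted p 0.0623 to 0.118, and the receptor Notch1 and the ligand Dll1 were not called with all libraries (-0.40 and -0.47), although Dll1 was called without wild-type replicate 1, adjusted p 0.00320. In the retinoic acid pathway 4 of 20 genes were called in each direction, with the binding protein Crabp2 and the receptor Rarb higher (0.99 and 0.90) and the degrading enzyme Cyp26a1 lower (-1.0). The count called lower was 0 without wild-type replicate 1 and 2 without insASAY replicate 1 or insASAY replicate 2 or by DESeq2, and the count called higher 2 without wild-type replicate 1. Cyp26a1 was not called by DESeq2 or without wild-type replicate 1, insASAY replicate 1 or insASAY replicate 2, adjusted p 0.113 to 0.239, and Stra8 was not called with all libraries (0.15). In the hedgehog pathway Sufu, an inhibitor of the Gli factors, rose by 0.99, and Ptch1, Smo, Gli1 and Gli3 were not called (-0.28, 0.03, 0.49 and 0.35), although Gli1 was called with counts without regard to strand, adjusted p 0.0371 or with offsets for GC content and exon length, adjusted p 0.0239.

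**Figure D2:**
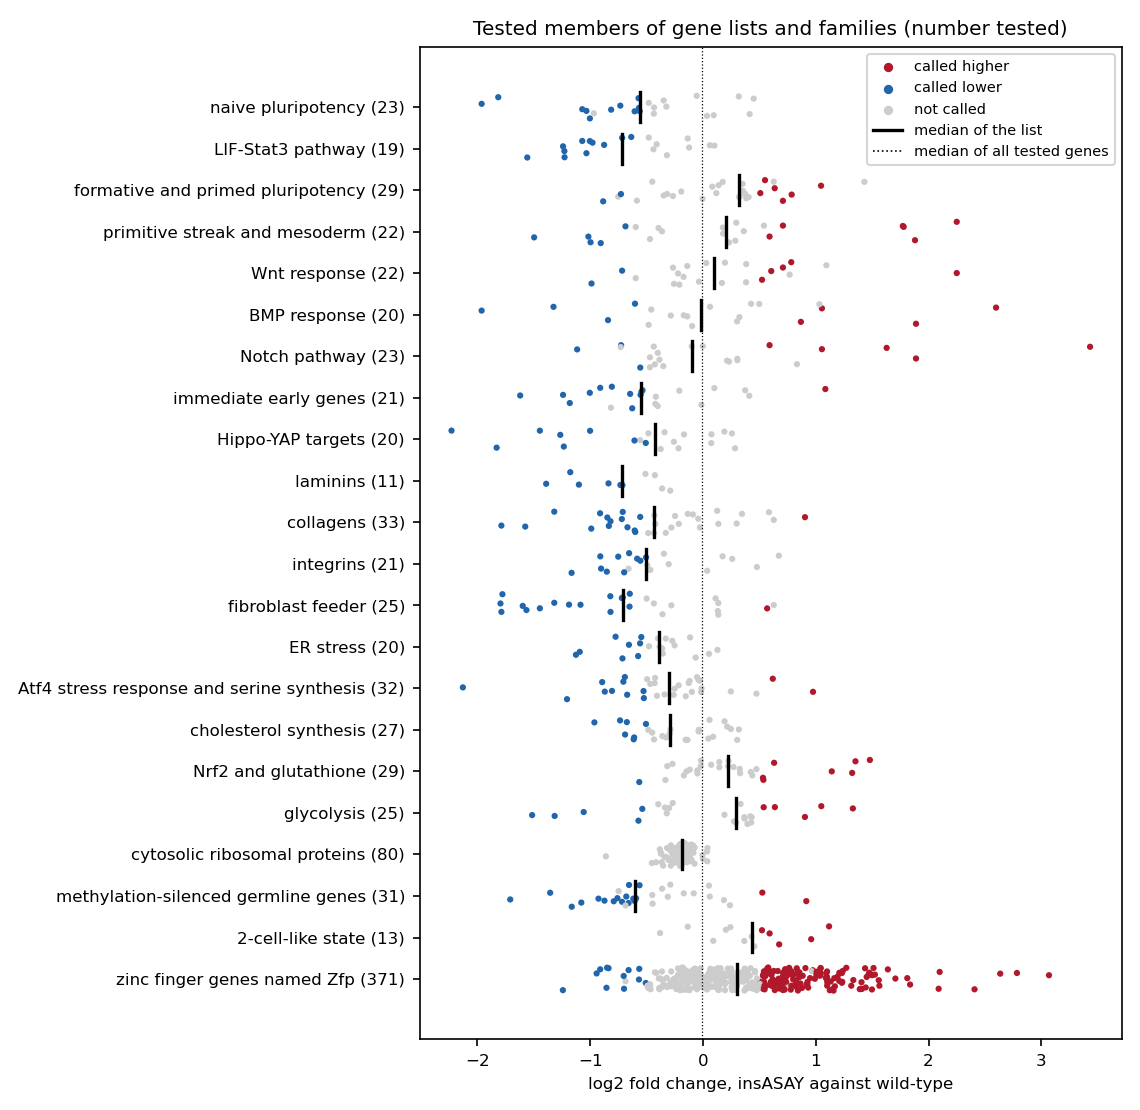
Log2 fold change (insASAY against wild-type) of each tested member of selected gene lists and families, one row per list; red points were called higher, blue points lower and grey points were not called. Black bars are list medians and the dotted line is the median of all tested genes, -0.01. The LIF-Stat3, laminin, feeder and naive pluripotency rows lie to the left, with medians of -0.72, -0.72, -0.71 and -0.56, and the zinc finger row to the right, with 0.30.

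Genes of naive pluripotency, the state that LIF and 2i maintain, were lower in part in insASAY cells, with 12 of 23 tested members not called. Of 23 tested members 11 were called lower and 0 higher (1 higher without wild-type replicate 1), with a median of -0.56. Fgf4, the growth factor by which ES cells prepare their own exit from pluripotency, was measured at 20.2 and 17 CPM in the wild-type libraries and 5.06 and 5.53 CPM in the insASAY libraries (log2 fold change -1.81, standard error 0.173, adjusted p = 7.33e-06). Nanog was measured at 38.7 and 32.9 against 22.2 and 21 CPM (log2 fold change -0.73, standard error 0.141, adjusted p = 9.66e-04), and Esrrb at 58.7 and 58.9 against 39.9 and 39.9 CPM (log2 fold change -0.56, standard error 0.0737, adjusted p = 6.35e-05). In each gene both insASAY libraries lay below both wild-type libraries, as in nearly all genes called lower. Tfcp2l1 and Klf5, further factors of the naive network, fell by 1.07 and 1.0. Zfp42 (Rex1), a naive marker as well, was not called, with a log2 fold change of 0.45 and an adjusted p of 1.22e-04, and Sox2 and Klf4 were not called (-0.05 and -0.48), although Klf4 was called without wild-type replicate 2 or insASAY replicate 2, adjusted p 0.0114 to 0.0142. Esrrb was not called with offsets for GC content and exon length, log2 fold change -0.50. Of 29 genes of the next, formative stage 6 were called higher and 2 lower, with a median of 0.32 that ran from 0.182 to 0.349 as each library was left out. Pou3f1 (Oct6) rose from 23.6 and 22 to 31.2 and 33.7 CPM (log2 fold change 0.51, standard error 0.0984, adjusted p = 9.93e-04), Trh by 1.05, Sall2 by 0.79 and Mycn by 0.71. The count called higher was 3 without insASAY replicate 2, and Pou3f1 was not called without wild-type replicate 2 or insASAY replicate 2, log2 fold change 0.45. Of the defining genes of that stage, Dnmt3b was not called (0.14), and Otx2 and Fgf5 stayed at or under 0.805 CPM in all 4 libraries and did not pass (0.63 and 1.43), although Fgf5 was called without wild-type replicate 1, adjusted p 0.0306, or without a filter on low counts, adjusted p 0.00888, or in the fit of only the 4 compared libraries, adjusted p 0.0124.

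The LIF-Stat3 pathway, which supports naive pluripotency, had the lowest median of the signalling lists, -0.72, with 11 of 19 tested members lower and 0 higher. Stat3, its transcription factor, was measured at 85.0 and 83.5 CPM in the wild-type libraries and 40.4 and 42.0 CPM in the insASAY libraries (log2 fold change -1.03, standard error 0.0705, adjusted p = 1.30e-06). Its target Pim1, a survival kinase, was measured at 368 and 366 against 118 and 131 CPM (log2 fold change -1.56, standard error 0.158, adjusted p = 1.06e-05), and Socs3, the feedback inhibitor, at 10.7 and 9.56 against 6.67 and 6.37 CPM (log2 fold change -0.64, standard error 0.130, adjusted p = 0.00146). The 2 groups of libraries were apart in all 3 genes, as in nearly all genes called lower. Pim3, Cish, Socs2 and Bcl3 fell by 1.23, 1.23, 0.72 and 0.88, and the ligand Lif itself by 0.98. The receptor chains were not called: Lifr had a log2 fold change of -0.44 and Il6st (gp130) of 0.10. FGF ligands and receptors were lower in 7 of 19 tested genes and higher in 0, among them the receptors Fgfr1 (-0.59), Fgfr3 (-0.80) and Fgfr4 (-1.51). The count higher was 1 without wild-type replicate 1, without a filter on low counts or in the fit of only the 4 compared libraries. The genes that report ERK activity downstream of them did not follow as a group, with 3 of 22 higher and 4 lower: Dusp6, Spry4 and Etv4 were at 0.05, 0.17 and -0.35 and were not called, and the ERK inhibitors Spred1 and Spred2 rose by 0.50 and 0.56, although Spred1 was not called without wild-type replicate 2 or insASAY replicate 1, log2 fold change 0.48 to 0.49, or without a filter on low counts, log2 fold change 0.50, or with offsets for GC content and exon length, log2 fold change 0.46.

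Several families of the extracellular matrix and its receptors held genes called lower in insASAY cells. Of 11 laminin chains, which build the basement membrane, all were tested, 7 were called lower, and each had a negative log2 fold change, with a median of -0.72. Lamc1, the gamma chain found in most laminins, was measured at 890.4 and 939.8 CPM in the wild-type libraries and 428 and 426 CPM in the insASAY libraries (log2 fold change -1.10, standard error 0.0811, adjusted p = 1.87e-06), and Lama5 at 840.5 and 892 against 519.8 and 537 CPM (log2 fold change -0.71, standard error 0.0523, adjusted p = 1.85e-06). For both genes each insASAY library lay far below each wild-type library. Hspg2 (perlecan), a large proteoglycan of the same membranes, fell by 1.09 from 1415 and 1528 CPM. Of 33 tested collagens 14 were lower and 1 higher, the latter at 0 without insASAY replicate 1 or insASAY replicate 2 or by DESeq2 and 2 without wild-type replicate 2, in the fit of only the 4 compared libraries or with offsets for GC content and exon length. Col18a1, which is abundant here, went from 728 and 797 to 424 and 432 CPM (log2 fold change -0.83, standard error 0.0729, adjusted p = 4.24e-06), Col2a1, the collagen of cartilage and notochord, from 30.0 and 30.8 to 9.91 and 10.5 CPM (log2 fold change -1.58, standard error 0.0840, adjusted p = 4.19e-07), and the basement membrane collagen Col4a2 fell by 0.67. Fn1 (fibronectin), on which mesoderm cells migrate, was measured at 1204 and 1247 CPM against 528 and 549 CPM (log2 fold change -1.19, standard error 0.0758, adjusted p = 9.68e-07).

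Receptors and remodelling enzymes were lower in part as well. Of 21 tested integrins 10 were lower and 0 higher, with a median of -0.50. They included the fibronectin receptor chain Itga5 (-0.70), the shared beta chain Itgb1, which went from 667 and 689 to 452 and 471 CPM (log2 fold change -0.55, standard error 0.0481, adjusted p = 4.08e-06), and Itgb3 and Itga8 (-0.90 and -1.16). Of 15 tested proteases and their inhibitors 7 were lower and 0 higher. Timp3, an inhibitor of matrix metalloproteases, had 57.0 and 57.9 CPM in wild-type and 16.4 and 17.1 CPM in insASAY libraries (log2 fold change -1.78, standard error 0.135, adjusted p = 2.01e-06), and Adamts1, Mmp9 and Plau, the urokinase gene, fell by 1.15, 1.31 and 0.92. The activator Plat and the receptor Plaur did not pass (-0.48 and -0.27), although Plat was called without insASAY replicate 1, adjusted p 0.0205, or with offsets for GC content and exon length, adjusted p 0.00311. Semaphorins and plexins, which guide migrating cells, were lower in 8 of 28 genes and higher in 1, led by Sema3e (-0.78), and the lower count was 5 without wild-type replicate 2. The count higher was 2 without wild-type replicate 2, in the fit of only the 4 compared libraries or with the replicate block and 3 without insASAY replicate 2 or with offsets for GC content and exon length. E-cadherin (Cdh1), the adhesion protein of epithelia and of ES cell colonies, fell from 768 and 818 to 469.8 and 495 CPM (log2 fold change -0.72, standard error 0.0579, adjusted p = 2.72e-06), while N-cadherin (Cdh2) was at 23.4 and 20.9 against 22.9 and 21.3 CPM (log2 fold change -0.003). Vim and Epcam, markers of mesenchyme and epithelium, were not called (0.13 and 0.04). The 30 fibroblast feeder markers, which share Fn1, Thbs1, Timp3 and several collagens with these lists, moved with the matrix genes, with 15 of 25 tested members lower and 1 higher and a median of -0.71. The count higher was 2 without wild-type replicate 1, in the fit of only the 4 compared libraries or with offsets for GC content and exon length. Members with moderate levels went both ways. Of those called lower, Col1a1 had 11.8 and 14.2 against 6.23 and 4.21 CPM, Mmp2 32.8 and 33.6 against 18.3 and 19.3 CPM, Fbln2 23.7 and 26.1 against 11.4 and 12.0 CPM and Col5a1 57.4 and 65.9 against 37.6 and 37.3 CPM. Tgfbi rose from 20.3 and 20 to 30.3 and 29.5 CPM, and Col6a2 and Loxl1 were not called (0.14 and 0.11). Of the 19 tested markers of extraembryonic endoderm, which include Lamc1, Lamb1 and Col4a2, 5 were lower and 1 higher, the latter at 0 without wild-type replicate 1 or insASAY replicate 1 or by DESeq2 and 2 in the fit of only the 4 compared libraries. The study's differentiation was feeder-free, and the part of either cell type in the fall of the matrix genes was not tested.

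**Figure D3:**
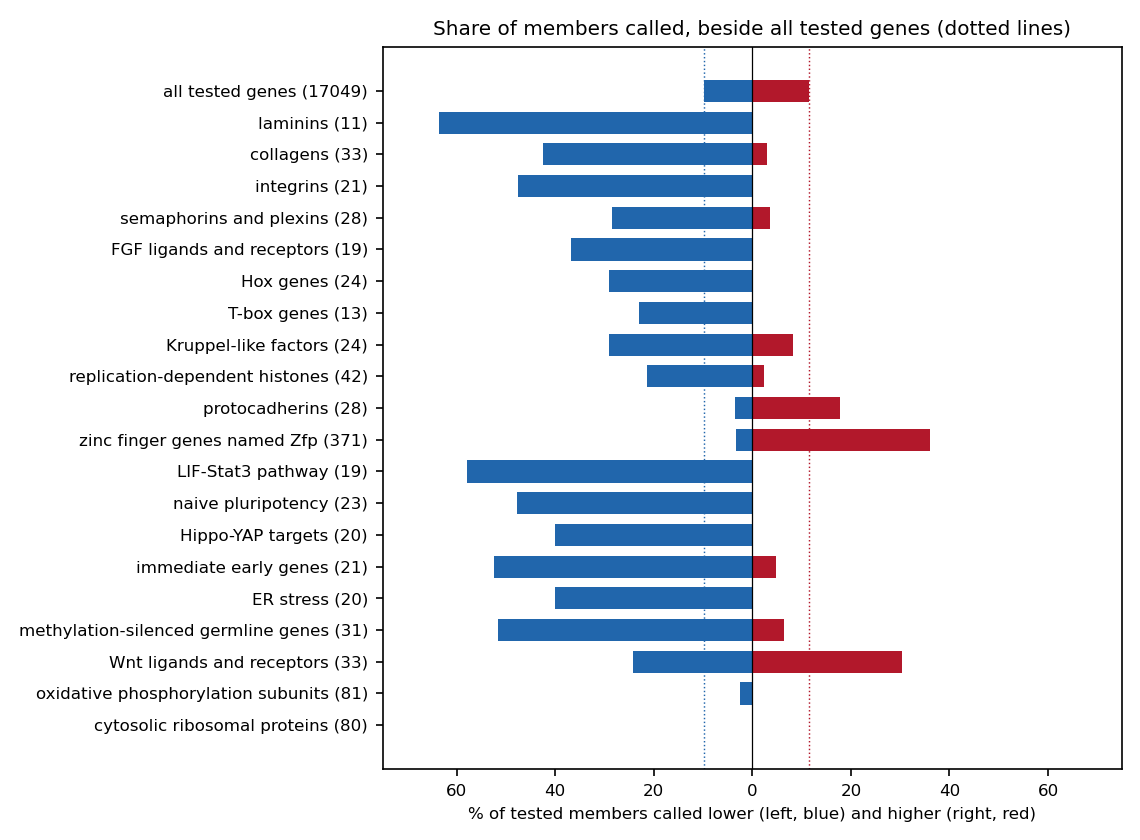
Percentage of tested members called lower (blue, to the left) and higher (red, to the right) in insASAY cells for selected gene lists and families, with the number of tested members in brackets; dotted lines mark the shares among all tested genes, 11.5% higher and 9.85% lower. The share called lower is 63.6% for laminins and 57.9% for the LIF-Stat3 pathway, and ribosomal protein genes hold no call in either direction.

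The targets of YAP, the transcriptional effector of the Hippo pathway that responds to cell spreading and tension, were lower in 8 of 20 genes and higher in 0, with a median of -0.43. Beside Ccn1, its best known targets Ccn2 (CTGF) and Amotl2 were measured at 163 and 154 CPM against 55.4 and 61.1 CPM (log2 fold change -1.45, standard error 0.223, adjusted p = 1.96e-04) and at 366 and 365 CPM against 143 and 161 CPM (log2 fold change -1.26, standard error 0.105, adjusted p = 3.37e-06). Both fell in both insASAY libraries. Ajuba, a junction protein that restrains the Hippo kinases, and Nuak2 fell by 1.0 and 1.23. Yap1 itself was at 181 and 177 CPM against 187 and 190.0 CPM (log2 fold change 0.07), and its paralogue Wwtr1 (TAZ) fell by 0.51 but was not called without wild-type replicate 2 or insASAY replicate 1, log2 fold change -0.50 to -0.44. Ankrd1, a defining target at 1.34 and 1.19 against 0.583 and 1.13 CPM, did not pass (adjusted p = 0.194). Immediate early genes, which growth factors and stress switch on within minutes, were lower in 11 of 21 tested members and higher in 1, with a median of -0.55. Calls higher numbered 0 without any 1 of the 4 libraries or by DESeq2. Srf, the serum response factor that binds many of their promoters and those of actin genes, was measured at 173 and 168 CPM against 73.3 and 77.3 CPM (log2 fold change -1.18, standard error 0.0977, adjusted p = 3.25e-06). Fosl2, Junb and Nr4a1 fell by 1.62, 1.24 and 1.0, Jun by 0.55, and Fos, Fosb and Egr1 were not called (-0.42, -0.82 and 0.41), although Fosb was called without wild-type replicate 2, adjusted p 0.0404, or without a filter on low counts, adjusted p 0.00277, or in the fit of only the 4 compared libraries, adjusted p 0.0412, or with the replicate block, adjusted p 0.0136. Acta2, smooth muscle actin, went from 17 and 18.3 to 5.58 and 6.07 CPM (log2 fold change -1.6, standard error 0.140, adjusted p = 4.24e-06), and Tagln, an actin-binding protein of smooth muscle, from 389.7 and 364 to 112 and 142 CPM (log2 fold change -1.56, standard error 0.0820, adjusted p = 4.19e-07).

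The promoters of Ccn1 and Srf are shown because both genes fell and hold the motif of the factor each group is known for. Each line gives the 250 bases before the start in RefSeq on GRCm38.p6, read on the gene's own minus strand. For Ccn1, at chr3:145649986-145650235, the capitals mark the motif of the TEAD factors through which YAP acts, GGAATG, here on the opposite strand as CATTCC. For Srf, at chr17:46556163-46556412, they mark 2 matches of the CArG box that Srf protein itself binds.
Ccn1 promoter: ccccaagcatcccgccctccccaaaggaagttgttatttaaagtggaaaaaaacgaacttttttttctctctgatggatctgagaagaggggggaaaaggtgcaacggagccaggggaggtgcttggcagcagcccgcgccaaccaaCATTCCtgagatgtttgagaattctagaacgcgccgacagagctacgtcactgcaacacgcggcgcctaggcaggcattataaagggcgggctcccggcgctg
Srf promoter: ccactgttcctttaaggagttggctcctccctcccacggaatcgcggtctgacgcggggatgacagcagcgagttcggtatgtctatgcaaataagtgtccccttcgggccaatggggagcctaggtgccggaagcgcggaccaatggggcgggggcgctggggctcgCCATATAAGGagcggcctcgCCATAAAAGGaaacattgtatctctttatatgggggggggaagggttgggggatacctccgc
In windows of 300 bases, 250 before and 50 after the start and searched on both strands, GGAATG was found in 11 of 16 promoters of the YAP target list (68.8%) and in 12.3% of the promoters of all tested genes, and the CArG box in 6 of 23 promoters of the immediate early list (26.1%) and in 1.29% of all. The TEAD motif and the CArG box were added after the values were seen, and both lists were compiled from knowledge of these factors, so the shares describe the lists and not the change.

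Several branches of the stress responses held genes called lower. In the endoplasmic reticulum (ER), where secreted proteins are folded, 8 of 20 genes of the unfolded protein response were called lower and 0 higher, with a median of -0.39. Hspa5 (BiP), the main chaperone of the ER, was measured at 782 and 778 CPM in the wild-type libraries and 541 and 519 CPM in the insASAY libraries (log2 fold change -0.56, standard error 0.0449, adjusted p = 2.72e-06). Atf6, a sensor of this response, was measured at 149.9 and 149 against 65.6 and 74.7 CPM (log2 fold change -1.09, standard error 0.0846, adjusted p = 2.20e-06), and Calr (calreticulin) fell by 0.66. In each the insASAY libraries were the lower ones, while Xbp1, the factor of another branch, and the chaperones Hsp90b1 and Dnajb9 were not called (0.13, -0.25 and -0.11). The promoter of Hspa5 is shown because 4 matches of the CCAAT box, the motif of the factor NF-Y and a part of the ER stress element, stand in its 250 bases, chr2:34771840-34772089 on the plus strand, capitals marking CCAAT or its reverse complement ATTGG.
Hspa5 promoter: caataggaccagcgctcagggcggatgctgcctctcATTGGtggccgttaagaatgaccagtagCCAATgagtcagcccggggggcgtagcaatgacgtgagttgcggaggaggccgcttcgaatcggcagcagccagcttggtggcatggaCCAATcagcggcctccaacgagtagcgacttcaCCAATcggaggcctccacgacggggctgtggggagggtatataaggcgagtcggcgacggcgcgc
CCAAT was found in 16 of 17 promoters of the ER stress list (94.1%) and in 37.5% of all. It stood in 39.1% of the promoters of genes called lower and in 37.3% of those called higher. The share of 94.1% describes the list and not the change. Of 32 genes of the Atf4 branch, which senses amino acid shortage, 10 were lower and 2 higher. Nupr1, Trib3 and Chac1 fell by 1.20, 0.87 and 0.71 beside Ddit3, and Slc3a2 and Slc7a5, the 2 chains of a large neutral amino acid transporter, went from 702 and 747 to 398 and 430.1 CPM (log2 fold change -0.81, standard error 0.0844, adjusted p = 1.30e-05) and from 889 and 934 to 541 and 587 CPM (log2 fold change -0.69, standard error 0.0688, adjusted p = 9.26e-06). Atf4 and Asns, the asparagine synthetase gene, were not called (-0.43 and -0.25), and Atf5 and Stc2 rose by 0.62 and 0.98.

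Of 30 targets of p53, 9 were called lower and 1 higher, with a median of -0.28. Members called higher numbered 0 without wild-type replicate 1. Bbc3 (PUMA), which triggers apoptosis, had 101 and 98.1 CPM in the wild-type and 40.3 and 44.9 CPM in the insASAY libraries (log2 fold change -1.22, standard error 0.124, adjusted p = 1.03e-05), and the death receptor gene Tnfrsf10b fell by 0.97. The classic targets Cdkn1a (p21), Mdm2, Ccng1 and Trp53inp1 were not called (0.15, -0.32, -0.16 and -0.11), and Trp53 itself rose by 0.53 but was not called without wild-type replicate 1, log2 fold change 0.50. Cholesterol synthesis was lower in 7 of 27 genes and higher in 0, with the sterol sensor gene Insig1 at 265 and 258 against 137 and 131 CPM (log2 fold change -0.96, standard error 0.0748, adjusted p = 2.24e-06). Srebf2, whose product drives the pathway, fell by 0.69. The enzyme gene Sqle fell by 0.50 but was not called without wild-type replicate 2 or insASAY replicate 1, log2 fold change -0.49 to -0.47, and Hmgcs1 was not called (-0.33). In fatty acid synthesis 1 of 18 genes was lower and none higher, and Fasn, Scd1, Acaca and Srebf1 were not called (-0.05, -0.05, -0.36 and -0.24). The count lower was 2 without wild-type replicate 1 or with offsets for GC content and exon length, and the count higher 1 with offsets for GC content and exon length. Other stress programs held calls in both directions. Among 29 genes of Nrf2 and glutathione, which protect against oxidation, 7 were higher and 1 lower: Srxn1 went from 58.5 and 64.5 to 154 and 154 CPM (log2 fold change 1.32, standard error 0.148, adjusted p = 1.99e-05), Keap1, the sensor that holds Nrf2 in check, from 15.0 and 16 to 38.6 and 40.5 CPM (log2 fold change 1.35, standard error 0.152, adjusted p = 2.05e-05), and the metallothionein Mt1 rose by 1.14. The count lower was 0 without wild-type replicate 1. Of the enzymes that define this response, Hmox1 and Gclc rose by 0.63 and 0.54, and Nqo1 and Gclm were not called (0.42 and 0.33). Gclc was not called with offsets for GC content and exon length, log2 fold change 0.48. Among 16 heat shock genes 3 were higher and 1 lower, 18.8% and 6.25%, beside 11.5% and 9.85% of all tested genes. The co-chaperone Chordc1 rose by 1.04 and Hspa1a fell by 1.23. Its near-identical copy Hspa1b, between which reads may be split, the chaperone Hsp90aa1 and Dnajb1 were not called (-0.26, -0.33 and 0.46), although Dnajb1 was called without insASAY replicate 2, adjusted p 0.00252.

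Glycolysis genes moved in both directions, 5 of 25 higher and 5 lower. Ldha, which makes lactate, was measured at 459.6 and 459.7 CPM in the wild-type libraries and 955 and 947 CPM in the insASAY libraries (log2 fold change 1.05, standard error 0.108, adjusted p = 1.14e-05), and Pdk1, a kinase that inhibits pyruvate dehydrogenase, at 224 and 231 against 584 and 560.2 CPM (log2 fold change 1.33, standard error 0.0728, adjusted p = 4.69e-07). Slc2a3, the neuronal-type glucose transporter, went the other way, from 1619 and 1600.5 to 615 and 680.2 CPM (log2 fold change -1.31, standard error 0.113, adjusted p = 3.97e-06), and Eno2 and Pfkfb3 fell by 1.51 and 1.06. The enzyme genes Hk2, Pfkp and Aldoa were not called (-0.27, -0.40 and 0.28). Several of these genes are also read in hypoxia, where 6 of 24 genes were higher, Bnip3 and Egln3 among them (1.19 and 0.54), and 3 lower, including Adm. These are 25% and 12.5%, beside 11.5% and 9.85% of all tested genes. Egln3 was not called without wild-type replicate 2, log2 fold change 0.47. Car9 and Vegfa did not pass (-0.70 and -0.48), although Vegfa was called without insASAY replicate 2, adjusted p 4.36e-04. Car9 was called with at least 10 reads in each compared library, adjusted p 0.0424 or in the fit of only the 4 compared libraries, adjusted p 0.0436. Of the 13 protein-coding genes of the mitochondrial genome 3 were called higher, mt-Nd1, mt-Nd2 and mt-Atp8 (0.81, 0.64 and 0.56), and mt-Co1, mt-Cytb and mt-Atp6 were not called (-0.15, 0.28 and 0.30). Without insASAY replicate 1 only mt-Nd1 was called, with mt-Nd2 and mt-Atp8 at log2 fold changes of 0.49 and 0.47, and likewise with offsets for GC content and exon length, at 0.42 and 0.4. Genes of protein synthesis, respiration and division held few calls, but shifts under the fold threshold do not count as calls. Of 30 mitosis genes 25 had a positive log2 fold change, with a median of 0.19. The medians of S phase genes and proteasome subunits were 0.09 and 0.05. At an unadjusted p under 0.05 by the edgeR test, 8 of 32 S phase genes were lower and 13 of 38 proteasome subunits higher. None of 80 cytosolic ribosomal protein genes was called by the edgeR test with its fold threshold and none by DESeq2, although at an unadjusted p under 0.05 67 of them were lower, their median was -0.19 and 3 of the 80 log2 fold changes were positive. Of these genes 1 without insASAY replicate 1 was called lower. Of 81 subunits of oxidative phosphorylation 2 were lower, of 38 proteasome subunits 1 was lower and of 77 mitochondrial ribosomal proteins 3 were higher. These counts were 1 without wild-type replicate 1 or insASAY replicate 2 for oxidative phosphorylation, 0 without any 1 of the 4 libraries or by DESeq2 for the proteasome and 5 without insASAY replicate 2 for the ribosomal proteins. In S phase genes 3 of 32 and in mitosis genes 1 of 30 were higher, and 0 of either were lower, and their defining genes Mcm2, Mcm5, Pcna, Cdc6, Cdk1, Ccnb1, Aurka and Plk1 had log2 fold changes from -0.02 (Mcm2) to 0.50 (Plk1) and were not called, although Plk1 was called without wild-type replicate 2 or insASAY replicate 2, adjusted p 2.28e-04 to 2.32e-04, or with counts without regard to strand, adjusted p 6.01e-06, or in the fit of only the 4 compared libraries, adjusted p 5.84e-09, or with offsets for GC content and exon length, adjusted p 7.53e-06. Higher members numbered 1 without wild-type replicate 1 for S phase and 2 without wild-type replicate 2 or insASAY replicate 2, with counts without regard to strand, in the fit of only the 4 compared libraries or with offsets for GC content and exon length for mitosis. Among genes that control entry into the cell cycle, E2f3 rose by 1.06 and Ccne2, cyclin E2, by 0.90, and Rb1 fell by 0.57. Ccne1 and Cdkn1c were not called (0.32 and 0.19).

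Germline genes that DNA methylation keeps silent in body cells, but that ES cells in naive culture partly express, were lower in 16 of 31 members and higher in 2, with a median of -0.61. Calls higher numbered 0 without insASAY replicate 1 and 1 without wild-type replicate 2 or by DESeq2. Mael, a protein of the piRNA pathway that guards germ cells against transposons, was measured at 41.8 and 37.1 CPM in the wild-type libraries and 20.8 and 20.8 CPM in the insASAY libraries (log2 fold change -0.93, standard error 0.165, adjusted p = 5.60e-04). Ddx4 (Vasa) and Dazl, RNA-binding proteins that define germ cells, were measured at 36 and 39.4 against 23.2 and 23.9 CPM (log2 fold change -0.68, standard error 0.101, adjusted p = 1.47e-04) and at 21.6 and 23.6 against 14.9 and 13.7 CPM (log2 fold change -0.66, standard error 0.160, adjusted p = 0.00442). Both insASAY libraries were below both wild-type libraries in all 3, as in nearly all genes called lower. Smc1b, the meiotic cohesin subunit, and Brdt, a bromodomain protein of the testis, fell by 1.71 and 1.08, Sycp3 was not called (-0.17), and Tex19.1 and Tex19.2 rose by 0.53 and 0.92. Tex19.1 was not called without insASAY replicate 1, log2 fold change 0.47, and Tex19.2 was not called by DESeq2 or without wild-type replicate 2 or insASAY replicate 1, adjusted p 0.102 to 0.128. The promoter of Mael, chr1:166238745-166238994 on the minus strand, is shown with its E-box CACGTG in capitals, a motif that reads the same on both strands.
Mael promoter: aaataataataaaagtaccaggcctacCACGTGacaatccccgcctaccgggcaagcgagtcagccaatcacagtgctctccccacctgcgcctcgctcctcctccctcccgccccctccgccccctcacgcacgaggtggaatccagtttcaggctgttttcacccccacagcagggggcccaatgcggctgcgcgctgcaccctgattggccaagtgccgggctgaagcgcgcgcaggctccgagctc
This motif was found in 17 of 33 promoters of the germline list (51.5%) and in 9.86% of the promoters of all tested genes. It stood in 11.3% of the promoters of genes called lower and in 9.82% of those called higher. The share of 51.5% describes the list and not the change. Of 20 tested genes listed for DNA methylation enzymes 3 were called higher and 3 lower, 15% each, beside 11.5% and 9.85% of all tested genes. Of those that set and keep DNA methylation, Dnmt1, Dnmt3a and Uhrf1 were not called (0.20, 0.18 and 0.20). Of the enzymes that remove it Tet1 was not called (-0.31), Tet2 fell by 0.70 and Tet3 rose by 0.63.

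Genes of the 2-cell-like state, which a small share of ES cells passes through, were higher in 5 of 13 tested members and lower in 0, with a median of 0.43. Zscan4d was measured at 3.86 and 4.39 CPM against 6.81 and 6.37 CPM (log2 fold change 0.68, standard error 0.167, adjusted p = 0.00496), Zscan4c at 3.57 and 3.72 against 5.72 and 5.27 CPM (log2 fold change 0.59, standard error 0.165, adjusted p = 0.0102), and Tmem92 at 1.88 and 1.56 against 3.86 and 3.62 CPM (log2 fold change 1.12, standard error 0.194, adjusted p = 4.55e-04). The insASAY libraries were above the wild-type libraries in these 3 genes, but the count of 5 rested on single libraries, at 1 without wild-type replicate 1 and 3 without insASAY replicate 1, by DESeq2 or with offsets for GC content and exon length. Zscan4c was not called by DESeq2 or without wild-type replicate 1 or insASAY replicate 1, adjusted p 0.0688 to 0.0824, or with offsets for GC content and exon length, log2 fold change 0.47, and Zscan4d was not called without wild-type replicate 1, adjusted p 0.0567. Zscan4f and Usp17lc, which define the state too, were not called (0.37 and 0.43). The Zscan4 genes are near-identical copies among which reads may be split, so their separate counts are uncertain. Of 46 tested imprinted genes, which are expressed from 1 parental copy, 10 were higher and 6 lower. The higher count was 5 without insASAY replicate 1 and 6 without wild-type replicate 2 or by DESeq2. Zdbf2 rose from 36.3 and 35.5 to 116 and 119 CPM (log2 fold change 1.71, standard error 0.134, adjusted p = 2.27e-06) and the maternally expressed RNA H19 from 36.6 and 41.5 to 103 and 79.0 CPM (log2 fold change 1.22, standard error 0.184, adjusted p = 1.61e-04), whereas Dlk1 fell by 0.79, and was not called without wild-type replicate 2 or insASAY replicate 1, adjusted p 0.0558 to 0.0560. Igf2, Meg3 and Cdkn1c were not called (0.36, 0.42 and 0.19), although Meg3 was called without insASAY replicate 2, adjusted p 0.00164, or with offsets for GC content and exon length, adjusted p 0.00161. Of the neighbours of Dlk1 in the same imprinted cluster, Rian and Mirg rose by 0.54 and 0.98.

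Among the zinc finger genes named Zfp, many of which encode DNA-binding repressors, the calls were mostly in 1 direction. Of 371 tested members 134 were called higher and 12 lower (36.1% and 3.23%), with a median of 0.30, and 225 were not called. Zfp933 was measured at 2.31 and 2.05 CPM in the wild-type and 9.66 and 8.93 CPM in the insASAY libraries (log2 fold change 2.09, standard error 0.223, adjusted p = 1.51e-05), and Zfp125 at 1.95 and 1.6 against 8.31 and 7.94 CPM (log2 fold change 2.19, standard error 0.218, adjusted p = 9.26e-06). Many of these genes lie in clusters of close copies, so single counts may share reads. Replication-dependent histone genes, whose main transcripts lack a poly(A) tail and are only partly captured in these libraries, were lower in 9 of 42 tested genes and higher in 1, with a median of -0.58 and near-identical members as well, while their summed level was 156.1 and 151.9 CPM in wild-type and 196.6 and 200.3 CPM in insASAY libraries. The lower count was 5 without wild-type replicate 1 or by DESeq2. The higher count was 2 with offsets for GC content and exon length. Hist1h3c was the most abundant of those that fell, from 10.6 and 8.34 to 3.79 and 3.77 CPM (log2 fold change -1.33, standard error 0.156, adjusted p = 2.80e-05). Polycomb and trithorax genes, which hold developmental genes in a silent or open state, were mostly not called, with 5 of 32 lower and 1 higher: Suz12 fell by 0.56, and Ezh2, Eed and Rnf2 were not called (0.08, -0.01 and -0.27). Members called higher numbered 0 without wild-type replicate 2 or insASAY replicate 1 or without a filter on low counts and 3 without wild-type replicate 1.

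Genes of other lineages and of the interferon response were described as well. Of 23 tested genes of neural progenitors 5 were called higher and 2 lower. The rises were led by Neurog3 and Foxb1, described above, and by Gbx2, a homeobox factor of the hindbrain that also supports pluripotency, which had 2.85 and 2.90 CPM in the wild-type libraries and 11.7 and 11.5 CPM in the insASAY libraries (log2 fold change 2.01, standard error 0.133, adjusted p = 1.17e-06). The genes that define neural progenitors were not among the calls: Sox1, Pax6, Nes and Sox11 were at log2 fold changes of 0.24, -0.47, 0.27 and -0.24, although Pax6 was called without insASAY replicate 1, adjusted p 0.0454. Of 12 tested genes of definitive endoderm 1 was called in each direction, 8.33% each, beside 11.5% and 9.85% of all tested genes. Trh was higher and the keratin gene Krt18 lower, while Sox17, Foxa2 and Gata4 were not called (-0.27, 0.54 and -0.36). Krt18, at -0.51, was not called without wild-type replicate 2 or insASAY replicate 1, log2 fold change -0.45 to -0.43, or with offsets for GC content and exon length, log2 fold change -0.48. In the interferon response, by which cells answer viral and double-stranded RNA, 4 of 21 tested genes were higher and 2 lower, the latter down to 1 without any 1 of the 4 libraries or by DESeq2. Ddx58 (RIG-I), a sensor of such RNA, rose from 7.76 and 9.15 to 19 and 16.9 CPM (log2 fold change 1.08, standard error 0.151, adjusted p = 9.29e-05), and Oasl2 by 1.49. The antigen transporter gene Tap1 fell by 0.94, and Irf7, a transcription factor of the response, was not called (-0.80). The reads of Isg15 numbered 2 and 1 against 4 and 7, under the filter.

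Other families of receptors, channels and transcription factors held calls in both directions. Of 20 tested ephrins and Eph receptors, which keep cells of neighbouring tissues apart, 5 were lower and 2 higher, the latter down to 1 without any 1 of the 4 libraries, by DESeq2, without a filter on low counts, with at least 10 reads in each compared library or with counts without regard to strand. Epha2 was measured at 109 and 114 CPM in the wild-type libraries and 68.2 and 70.4 CPM in the insASAY libraries (log2 fold change -0.69, standard error 0.0670, adjusted p = 8.14e-06), and Ephb3 fell by 0.66. Of 24 tested Kruppel-like and Sp factors 7 were lower and 2 higher, the latter down to 1 without wild-type replicate 2 or insASAY replicate 1, by DESeq2, with at least 10 reads in each compared library or with counts without regard to strand. Sp1, a general activator of promoters rich in GC, fell from 236 and 229 to 136 and 138 CPM (log2 fold change -0.76, standard error 0.0591, adjusted p = 2.24e-06), and Klf7, Klf11 and Klf6 fell by 0.76, 0.73 and 0.65. Of 28 tested protocadherins, adhesion proteins best known from neurons, 5 were higher and 1 lower. Pcdhga3 and Pcdhga7, members of the gamma cluster, rose by 1.75 and 1.12, and Pcdh19 fell by 0.76. Higher members numbered 3 without wild-type replicate 2, insASAY replicate 1 or insASAY replicate 2 or with at least 10 reads in each compared library. The genes of that cluster share their last exons, so reads may be split among them and single counts are uncertain. Of 44 tested amino acid transporters 9 were lower and 2 higher, the latter down to 1 without wild-type replicate 1, wild-type replicate 2 or insASAY replicate 2, by DESeq2 or with at least 10 reads in each compared library, among them Slc3a2 and Slc7a5, described above, and the glutamate carrier Slc1a3, at 23.2 and 23.5 CPM against 9.40 and 11.4 CPM (log2 fold change -1.17, standard error 0.147, adjusted p = 4.64e-05). Of 18 aminoacyl-tRNA synthetases, which load amino acids onto tRNA, 3 were lower and 0 higher, with Aars falling by 0.67 and Yars by 0.67. Of 50 tested potassium channel genes 7 were higher and 10 lower, 14% and 20%, beside 11.5% and 9.85% of all tested genes. The median of these channel genes was 0.01. Calls higher numbered 3 without wild-type replicate 2 or by DESeq2 and 4 without insASAY replicate 1, and the count lower 4 without wild-type replicate 1 or insASAY replicate 2 or by DESeq2, 5 without wild-type replicate 2 and 6 without insASAY replicate 1, while the median ran from 0.011 to 0.13.

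**Figure D4:**
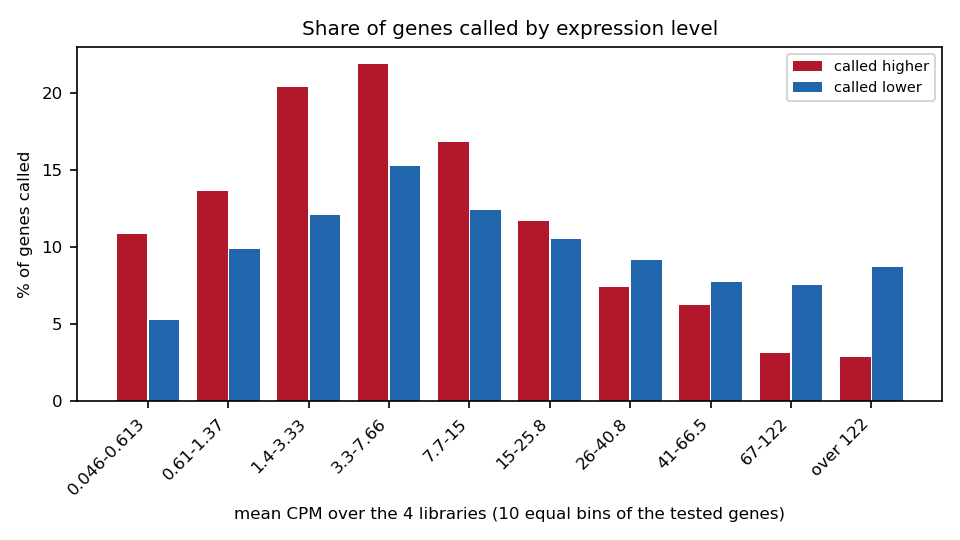
Percentage of tested genes called higher (red) and lower (blue) in insASAY cells, in 10 equal bins of the tested genes ordered by their mean CPM over the 4 libraries. The share called in either direction is largest in the bin between 3.33 and 7.66 CPM, at 37.1%, and in the highest bin calls to lower levels, 8.68%, outnumber those to higher levels, 2.87%.

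The share of genes called differed by class and level. Of 14251 protein-coding genes 1644 were higher and 1503 lower (11.5% and 10.55%), beside 11.5% and 9.85% of all tested genes. Of 791 long non-coding RNAs 155 were higher and 70 lower (19.6% and 8.85%), and of 1722 pseudogenes 133 and 53 (7.72% and 3.08%). Of 1253 genes known only by a Gm number or a Riken name, 228 were higher and 124 lower (18.2% and 9.90%). These last counts moved with the setting, to 111 by DESeq2, 141 without insASAY replicate 1 and 148 without wild-type replicate 2 for higher and 63 by DESeq2, 69 without insASAY replicate 2, 75 without insASAY replicate 1 and 80 without wild-type replicate 1 for lower. In the plot of calls by expression level, rises outnumber falls at low and middle levels and falls outnumber rises among abundant genes. Called genes were spread over the genome: on chromosomes 1 to 19 and X, between 18.6% and 24.7% of the tested genes were called, and chromosome 17, which carries the edited gene, had 22.3%.

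Motifs of T-box factors stood in few promoters of either group. The half-site GGTGTGA was found in 3.08% of the promoters of genes called higher, in 4.01% of those called lower and in 3.37% of all tested genes, and the same half-site with an A directly before it in 0.71%, 0.87% and 0.822%, on either strand of the same 300-base windows. TCF-LEF motifs were found in 6.98%, 5.08% and 5.84%, and CACGTG in 9.82%, 11.3% and 9.86%. Promoters were available for 11560 of the 17047 tested symbols, and these values describe the windows only.

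The study named a set of Tbxt target genes, chosen with the help of these same libraries, so their direction here is not independent evidence. Of 429 tested targets 153 were higher and 148 lower, with a median of -0.05, which ran from -0.051 to 0.004 as each library was left out. Id3, Sp5 and Tbx3, described above, are on that list. Of 111 tested genes that the study lists for tail development, mutations of which alter the tail in mice, 8 were higher and 20 lower, with a median of -0.15. The rises were led by Sp5, Cdx2 and Gdf11, a TGF-beta ligand that sets the trunk-to-tail transition, which went from 3.97 and 2.90 to 7.03 and 6.73 CPM (log2 fold change 1.0, standard error 0.203, adjusted p = 0.00139). The falls included Fgf4, Col2a1, Ccn2, Cbs and Lepr, the last 2 by 1.21 and 1.34, and also Cyp26a1 and Mesp2.

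**Figure D5:**
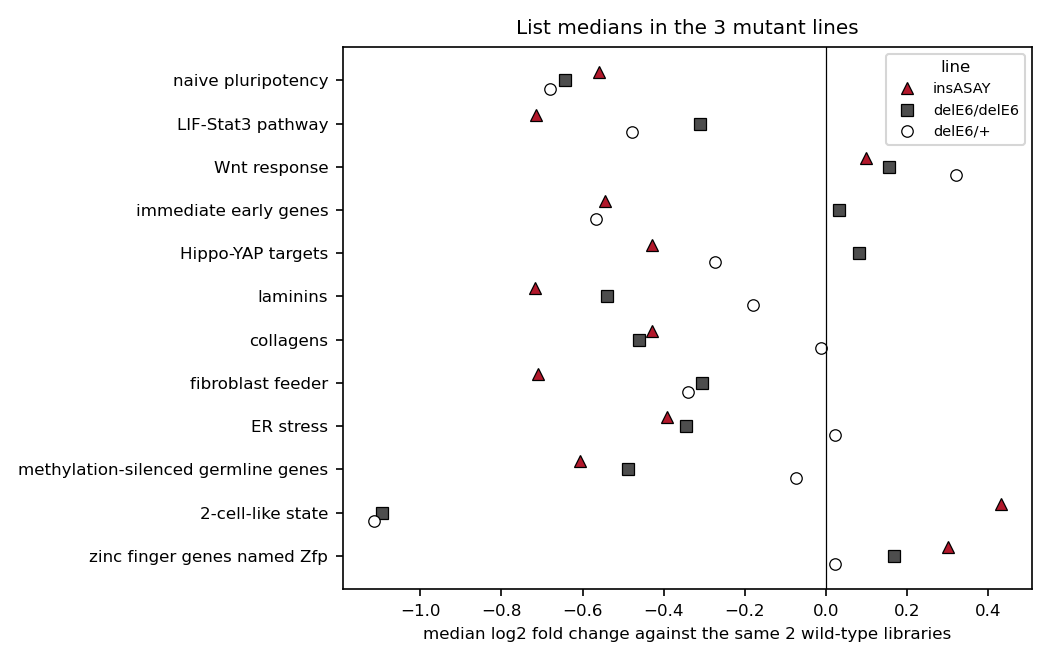
Median log2 fold change of the tested members of selected lists in insASAY (triangles), delE6/delE6 (squares) and delE6/+ cells (circles), each against the same 2 wild-type libraries. In naive pluripotency all 3 medians lie near each other, at -0.56, -0.64 and -0.68, and in the 2-cell-like list insASAY, at 0.43, stands opposite to -1.10 and -1.11.

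The other edited lines give a background for these values, with the limit that all 3 lines were compared with the same wild-type libraries. Against delE6/delE6 cells directly, 880 genes (5.16%) were called in insASAY cells, and against delE6/+ cells 4696 (27.5%). Against wild-type cells, 6.12% of all tested genes were higher and 6.59% lower in delE6/delE6 cells, and 6.60% and 6.89% in delE6/+ cells. In naive pluripotency, 11 of 23 genes were lower in insASAY, 14 in delE6/delE6 and 16 in delE6/+ cells. In laminins 7, 6 and 4 of 11 were lower, and in collagens 14, 13 and 7 of 33. Called higher were 0, 0 and 1 of the laminins and 1, 0 and 5 of the collagens. For zinc finger genes the counts called higher were 134, 77 and 21 of 371. Sp5 had 26.7 and 56.5 CPM in the delE6/delE6 and 19.6 and 19.4 CPM in the delE6/+ libraries, and the difference between insASAY and delE6/delE6 cells did not pass the test (log2 fold change 0.17, standard error 0.216, adjusted p = 0.655). The delE6/delE6 libraries, which come from different clones, differed more from each other in this gene than the insASAY libraries did. For Fgf4 and Tbx3 the difference from delE6/delE6 cells did not pass either (log2 fold change 0.51, standard error 0.210, adjusted p = 0.119, and log2 fold change -0.36, standard error 0.276, adjusted p = 0.419).

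Other genes differed between the lines when tested directly. Ccn1 was lower in insASAY than in delE6/delE6 cells, which had 889 and 532 CPM (log2 fold change -1.78, standard error 0.176, adjusted p = 3.43e-05), and than in delE6/+ cells, which had 315 and 328 CPM (log2 fold change -0.63, standard error 0.174, adjusted p = 0.00819). Acta1 and Tagln were lower than in delE6/delE6 cells as well (log2 fold change -1.58, standard error 0.164, adjusted p = 5.08e-05, and log2 fold change -1.44, standard error 0.0820, adjusted p = 1.05e-06), as was Gadd45b (log2 fold change -1.40, standard error 0.148, adjusted p = 5.60e-05). Over the immediate early list, 11 of 21 genes were lower in insASAY, 0 in delE6/delE6 and 12 in delE6/+ cells, and over the YAP targets 8, 2 and 5 of 20. Called higher, in the same order of lines, were 1, 4 and 0 of the immediate early genes and 0, 2 and 0 of the YAP targets. The 2-cell-like genes were called in opposite directions, with 5 of 13 higher in insASAY cells and 11 and 10 lower in the other lines. Zscan4d was higher in insASAY cells than in delE6/delE6 (log2 fold change 1.57, standard error 0.185, adjusted p = 1.22e-04) and delE6/+ cells (log2 fold change 1.79, standard error 0.190, adjusted p = 6.85e-06), and Tmem92 likewise (log2 fold change 2.07, standard error 0.220, adjusted p = 5.79e-05, and log2 fold change 2.17, standard error 0.224, adjusted p = 5.42e-06). Neurog3 had 1.17 and 3.45 CPM in the delE6/delE6 and 0.757 and 0.736 CPM in the delE6/+ libraries, and was higher in insASAY cells than in delE6/+ cells (log2 fold change 3.61, standard error 0.357, adjusted p = 3.74e-06). For the ER stress list the counts lower were 8, 3 and 0 of 20, and Atf6 was lower in insASAY than in delE6/delE6 cells (log2 fold change -0.73, standard error 0.0852, adjusted p = 1.17e-04). Cholesterol synthesis genes were lower in 7, 1 and 0 of 27.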

How the data were processed

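Messenger RNA of 8 libraries, 2 of each of 4 genotypes at day 1 of differentiation, was enriched by poly(A) selection, made into strand-specific libraries and sequenced by the authors. The deposited values are read counts per gene from STAR (2.7.2a, mm10, per the submitters' processing notes, which also name DESeq2 1.40.2). The authors' gene annotation is not given in the sources used here. Each file holds 3 columns of counts, and the third of these, with reads on the second strand of a stranded kit, was used, since only 4.11% to 4.78% of the strand-assigned reads lay on the other strand. Of 48440 identifiers 48058 were named from GENCODE M21. The summary lines on unassigned reads, absent from the file of 1 wild-type library, stayed out of library sizes.

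Counts were normalised with TMM factors and fitted with edgeR 4.0.16 (R 4.3.3) by genotype over all 8 libraries, after filterByExpr with a minimum count of 10. The quasi-likelihood test compared insASAY with wild-type cells, with Benjamini-Hochberg adjustment over 17049 genes. Each standard error given was derived from this test, as the absolute log2 fold change divided by the square root of the F statistic. Genes were called at an adjusted p under 0.05 and an absolute log2 fold change over 0.5. Replicates of a group differed by more than sampling noise (chi-square per degree of freedom 3.39 for wild-type and 2.75 for insASAY). The study's methods name the replicates as biological. The fit was tested on simulated counts, and tables and plots were made with pandas 2.3.3 and matplotlib 3.10.9.

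Gene lists and families are described by counts and medians, with no test. The genes named are Tbxt, Wnt3a, Msgn1, Mixl1, the defining genes of each list, the 15 largest rises and falls among called genes that average 2 CPM or more and whose groups stand apart, up to 6 called members of a list with the smallest adjusted p and up to 3 with the largest rise and fall, and called genes by chromosome or near Tbxt. Others, namely Bcl3, Brdt, Cbs, Col6a2, Fbln2, Fzd1, Fzd10, H2-K1, Klf6, Loxl1, Nr4a1, Postn, S100a4, Socs2, Uhrf1, Wnt3 and Yap1, and the genes under other observations, were chosen after their values were seen. Some genes that this rule names are not reported here. The comparison, the lists and their members were chosen with earlier results of these data known. Alternatives were DESeq2 1.42.0, DESeq2 size factors, other filters, unstranded counts, the 4 compared libraries alone, a replicate block, offsets for GC content and exon length, other thresholds and leaving out each library. Promoter sequences are from RefSeq (GRCm38.p6), and the Tbxt sequence is from the GENCODE M21 transcripts.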

Additional observations from a re-analysis of the deposited data

How the results depend on the processing

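Rises outnumbered falls under either tool and either scaling: DESeq2 called 1443 genes higher and 1362 lower, and with DESeq2 size factors in edgeR 1959 and 1679 were called. The fold threshold set the size of the counts and their balance, since falls were the more numerous by adjusted p alone. Testing against a log2 fold change of 0.5 left 664 higher and 551 lower, an adjusted p alone gave 3962 and 4107, and a log2 fold change over 1 gave 738 and 449. As each library was left out, 1512 to 1744 genes were higher and 1329 to 1572 lower. Tbxt kept its sign in every fit. Its log2 fold change was -0.59 in the fit of the 4 compared libraries alone, with an adjusted p of 0.0459, and -0.66 to -0.54 as each library was left out.

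With the replicate block, 1947 genes were higher and 1663 lower and Tbxt was at -0.60 with an adjusted p of 0.0974; the deviations of same-numbered libraries had a correlation of 0.05 over genes, and with only 2 numbers these pair nothing. Of the named genes the block changed 1 call, that of Fosb.

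Of 3730 values of 312 named genes under the alternatives, 3618 kept direction and side of the threshold, 69 lost the call and 30 gained one. The other 13 changed sign, none of them in a called gene. As each library was left out, Cdh2 ran from -0.08 to 0.08, Dab2 from -0.2 to 0.17, Otx2 from -0.15 to 2.33, Sox17 from -0.61 to 0.19, Thy1 from -0.03 to 0.29 and Eed from -0.03 to 0.01. With offsets for GC content and exon length Dusp6 was at -0.0, Fasn at 0.09 and Mcm2 at 0.03, and with unstranded counts Eed was at 0.01. The causes were not tested. Of 1488 list counts 142 moved by over 1.5 times, 57 of them with 1 library left out and a count of 3 or fewer to begin with. Of 744 list medians 72 were marked as moved, some by little, as for ER stress from -0.391 to -0.407 without insASAY replicate 1. With 1 library left out, the medians of 6 lists changed sign. By DESeq2 the called members of a list that had over 3 by edgeR fell from 5 to 3 higher for the 2-cell-like state, 4 to 2 higher for BMP response, 7 to 4 lower for Hox genes, 5 to 3 higher for the Notch pathway, 10 to 6 higher for imprinted genes, 7 to 3 higher and 10 to 4 lower for potassium channels, 228 to 111 higher and 124 to 63 lower for predicted genes, 5 to 3 lower for primitive streak and mesoderm, 9 to 5 lower for histones and 4 to 2 lower for the retinoic acid pathway. The 2-cell-like state was also at 3 higher with the GC and length offsets, and protocadherins went from 5 to 3 higher with at least 10 reads in each compared library. Where a list held no call in a direction by edgeR, DESeq2 called none either. Depth limits what could be tested: 17049 of 48440 identifiers carried enough reads.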

Other observations

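Of groups put together after the values were seen, and therefore given with no test, the SR splicing factors moved mostly one way. These proteins bind exons and help the splicing machinery to recognise them. Of 11 tested genes named Srsf, 6 were called higher and 1 lower, with a median log2 fold change of 0.59, beside -0.01 for all tested genes. Srsf2 was measured at 154 and 152 CPM in the wild-type libraries and 351 and 334 CPM in the insASAY libraries (log2 fold change 1.16, standard error 0.0887, adjusted p = 2.03e-06). Srsf1 was measured at 35.9 and 32.4 against 74.8 and 71.6 CPM (log2 fold change 1.10, standard error 0.117, adjusted p = 1.46e-05), and Srsf6 at 106 and 109 against 207 and 189 CPM (log2 fold change 0.88, standard error 0.0906, adjusted p = 1.13e-05). In all 3 genes both insASAY libraries lay above both wild-type libraries, as in all genes called higher. Srsf4 and Srsf7 were not called (-0.24 and 0.22). In delE6/delE6 cells Srsf2 had 232 and 303 CPM and in delE6/+ cells 155 and 158 CPM. The counts include every transcript form of these genes, and which forms were present was not measured.

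Genes that host small nucleolar RNAs in their introns showed lower levels in part, with 4 of 13 tested genes called lower and 1 higher. Gas5 went from 300.4 and 299.7 to 179 and 187 CPM (log2 fold change -0.71, standard error 0.0730, adjusted p = 1.11e-05), Snhg1 fell by 0.93 on the log2 scale, and Snhg3 rose by 0.78. Of 33 tested genes of the contractile actin skeleton 13 were called lower and 1 higher, with a median of -0.34. Beside Acta1, Acta2 and Tagln, Myl9, a light chain of muscle-type myosin, and Cnn1, a calponin of smooth muscle, fell by 1.6 and 1.05. Actb, the most used reference actin, was at 2974 and 2983 against 2543 and 2533 CPM and was not called (-0.23), and the myosin kinase gene Mylk was the 1 called higher (0.99, not called by DESeq2 or without wild-type replicate 1, wild-type replicate 2 or insASAY replicate 1, adjusted p 0.0687 to 0.186). These groups were chosen because some of their members stood out, so their counts describe the chosen genes only.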
